A study of Mus musculus with 280 samples.

Results

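The data described here are the whole transcriptomes of 82 single mouse embryos at the 4-cell stage, 40 sired by males on a low protein diet (LP) and 42 sired by males on control diet (C), out of 280 embryos of several stages in the series. Members were taken by the stage and diet written above each embryo's column in the deposited table, which differed from the sample labels in 0 cases. All embryos were of the FVB strain. They came from in vitro fertilisation of oocytes from females on control diet, so that by the labels the groups differed only in what the sire ate, and were grown in KSOM medium to the 4-cell stage. The labels used here give neither the composition of the diets nor the ages of the animals. Since it was the sire that ate the diet, embryos of 1 sire share 1 treated animal: the 40 LP embryos came from 9 sires and the 42 C embryos from 8 sires. 17 oocyte donors gave the eggs, and 16 of them gave embryos of both diets. The comparison asks whether the sire's diet is visible in the embryo's RNA at this stage.

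The mouse embryo reaches the 4-cell stage after the major wave of zygotic genome activation, when the burst of 2-cell transcripts linked to the retrovirus-like element MERVL has mostly ended, much of the maternal RNA has been removed and RNA for ribosomes and metabolism is being made in quantity. Compaction and the first separation of trophectoderm from inner cell mass come later. After in vitro fertilisation the father's contribution is the sperm, which carries DNA and its packaging proteins, DNA methylation and small RNAs, among them fragments of tRNAs.

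Values are TPM, the length-corrected share of an embryo's transcripts, so the depth of each library is unknown and RNA per cell cannot be told from the number of cells. The stage was visible in most of the markers. Bhmt, a methyltransferase that comes on at this stage, had a median of 1428 TPM in LP and 1319 TPM in C embryos, against 1.2 and 1.66 TPM in 2-cell embryos of LP and C sires. Of the 6 markers of 4-cell onset, Hand1, Tead4, Rpl5 and Nolc1 were likewise higher than at the 2-cell stage. Klf17 went the other way, with medians of 518.9 TPM in LP and 532.8 TPM in C embryos, against 1024 and 1037 TPM at the 2-cell stage. Zscan4c, a 2-cell gene, had medians of 1.19 TPM in LP and 0.675 TPM in C 4-cell embryos, whereas its 2-cell medians were 525.9 and 509.8 TPM. Tdpoz4, also a 2-cell gene, was still at medians of 42.4 TPM in LP and 51.3 TPM in C embryos. The trophectoderm gene Cdx2 had medians of 0.36 TPM in LP and 0.22 TPM in C embryos. None of the 6 cumulus cell markers and 1 of the 6 sperm markers was in the table, and that one, the protamine gene Prm2, had a median of 0 in both diets. The table holds 11076 genes, and absence from it does not give a level. In 20 of 6806 values (0.294%), a cytosolic ribosomal protein gene was listed at 0 in a 4-cell embryo.

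The embryos lay on 8 plates, the first part of their names; 7 plates held both diets, 6 of them with 1 sire per diet, so plate and sire pair can hardly be told apart. Plate accounted for 29.8% of the variance of the median gene and diet for 0.461%. Of the embryos, 3 LP embryos and 0 C embryos had fewer than 7000 genes at 1 TPM or more, namely 5071 genes in an embryo of plate 4 and 6898 and 6981 genes in embryos of plate 5. List medians, and printed fold changes that moved by over 1.5 times, are given with and without them. Transcripts of the Y chromosome were found in a smaller share of the LP embryos, with the counts given beside the sex chromosome genes.

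No gene differed between LP and C 4-cell embryos past an adjusted p of 0.05. limma with plate as covariate tested 9820 genes and called 0 (0%) after Benjamini-Hochberg adjustment. At an unadjusted p under 0.05 it called 511 genes (5.20%), 192 of them (1.96%) with the higher level in LP embryos and 319 (3.25%) with the lower. After quantile normalization between embryos the same threshold gave 321 higher and 315 lower genes. Without the 3 LP embryos of few genes it gave 522 genes higher in LP (5.30%) and 265 lower (2.69%). Which direction prevailed at that threshold therefore turned with these embryos and with the scaling. The median log2 fold change over all genes was -0.04 with all embryos and 0.03 without the 3, and the smallest adjusted p of any gene without them was 0.280.

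The intervals show, on the log2(TPM + 1) scale, how large a difference these embryos could hide. For 9461 of the 9820 genes (96.3%) the 95% interval of the fold change lay within 2-fold in both directions, and for 6452 (65.7%) within 1.5-fold. Among the 2923 genes with a mean of 50 TPM or more, the interval lay within 2-fold for 99.2% and within 1.5-fold for 88.5%. The fitted log2 fold changes of all genes ran from -0.38 at the 5th to 0.27 at the 95th percentile, and the fitted change reached 2-fold in 9 genes. The residual standard deviation of the median gene between embryos of 1 plate and diet was 0.84 on the log2 scale. These intervals treat embryos as independent although embryos of a sire share a father, so they may be too narrow. The log2(TPM + 1) scale also understates changes of low genes, so for such genes the intervals do not bound the change in TPM. Tmem92, with a mean of 2.31 TPM in LP and 5.07 TPM in C embryos, was fitted at -0.77.

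**Figure D1:**
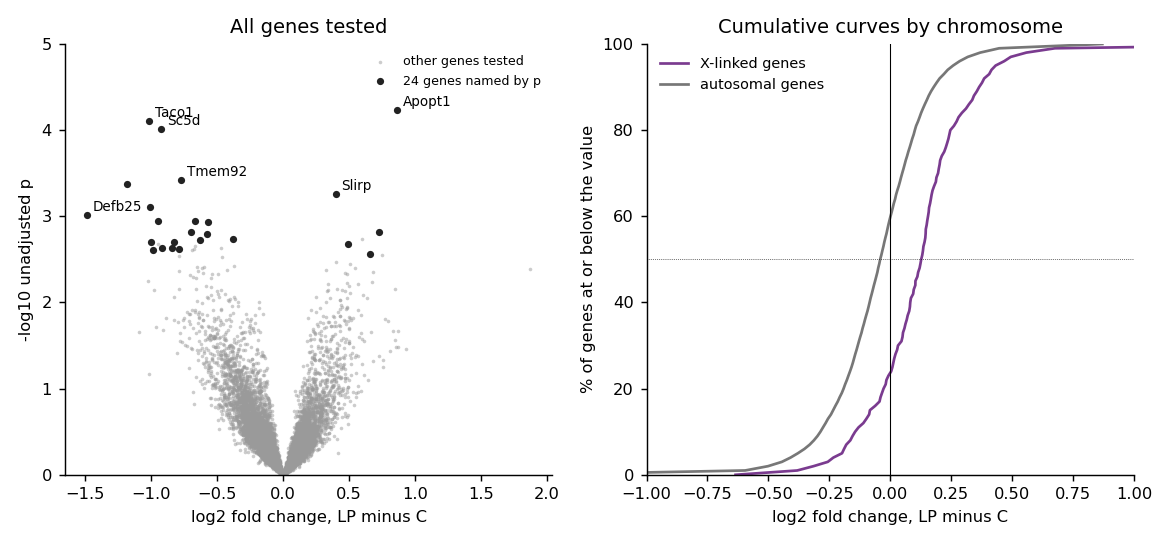
Left, log2 fold change (LP minus C, log2(TPM + 1) scale) against -log10 of the unadjusted p for the 9820 genes tested, with the 24 genes of smallest p in black. Right, the percentage of X-linked and autosomal genes at or below each log2 fold change; the X-linked curve lies to the right, crossing 50% at 0.13, against -0.04 for autosomal genes.

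The 24 genes with the smallest p among those reaching 5 TPM on average in 1 diet had adjusted p from 0.317 to 0.873, and none of them is a called difference. Of the 24, 19 had the lower level in LP embryos and 5 the higher. The sizes of the log2 fold changes lay between 0.38 and 1.49.

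Apopt1 (chromosome 12, 111713261 to 111755053, mm10), which encodes an assembly factor of cytochrome c oxidase, ran from 1.36 over a median of 15.8 to 193.0 TPM in LP embryos and from 0 over 7.45 to 104.3 TPM in C embryos. The values of the diets overlapped, with the median and the highest value greater in LP embryos, and 2 C embryos were listed at 0. The log2 fold change was 0.86 ± 0.20 (SE, n = 40 and 42; limma adjusted p = 0.317). LP means were higher on 6 of 7 plates and in 7 of 8 sire pairs, with pair differences from -0.87 to 2.13. Taco1 (chromosome 11, 106066061 to 106073612), a translational activator of a mitochondrially encoded subunit of the same enzyme, ran from 0 over 6.29 to 41.6 TPM in LP embryos and from 0 over 13.3 to 64.7 TPM in C embryos. Its log2 fold change was -1.02 ± 0.24 (adjusted p = 0.317), with the LP mean lower on 7 of 7 plates and in 8 of 8 sire pairs. It was listed at 0 in 7 LP and 2 C embryos, and the remaining values overlapped. Slirp (chromosome 12, 87443896 to 87452206), an RNA-binding protein that stabilises mitochondrial mRNAs, ran from 49.4 over 180.3 to 541.5 TPM in LP embryos and from 70.7 over 126.7 to 317.1 TPM in C embryos. The log2 fold change was 0.40 ± 0.11 (adjusted p = 0.842). Slirp overlaps Alkbh1 and Snw1 on the opposite strand, and without strand information their reads cannot be told apart.

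Sc5d (chromosome 9, 42251595 to 42264256), a desaturase near the end of cholesterol synthesis, ran from 0 over 1.64 to 15.7 TPM in LP embryos and from 0 over 4.69 to 17.1 TPM in C embryos. Its log2 fold change was -0.92 ± 0.23 (adjusted p = 0.317). The LP mean was higher in 1 of 8 sire pairs. In a fit over 3 stages without embryos under 7000 genes, chosen after seeing the data, Sc5d passed the threshold at the 4-cell stage (-0.89, adjusted p = 0.0492). Tmem92 (chromosome 11, 94777217 to 94782703), a membrane protein gene of the 2-cell, MERVL-linked programme, ran from 0 over 1.74 to 6.89 TPM in LP embryos and from 0 over 4.31 to 22.9 TPM in C embryos. It was listed at 0 in 8 LP and 3 C embryos, and the highest C embryos had no counterpart among the LP embryos. The log2 fold change was -0.77 ± 0.21 (adjusted p = 0.825). 3110009E18Rik was listed at 0 in 28 of 40 LP and 16 of 42 C embryos, with a log2 fold change of -1.18 ± 0.32.

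**Figure D2:**
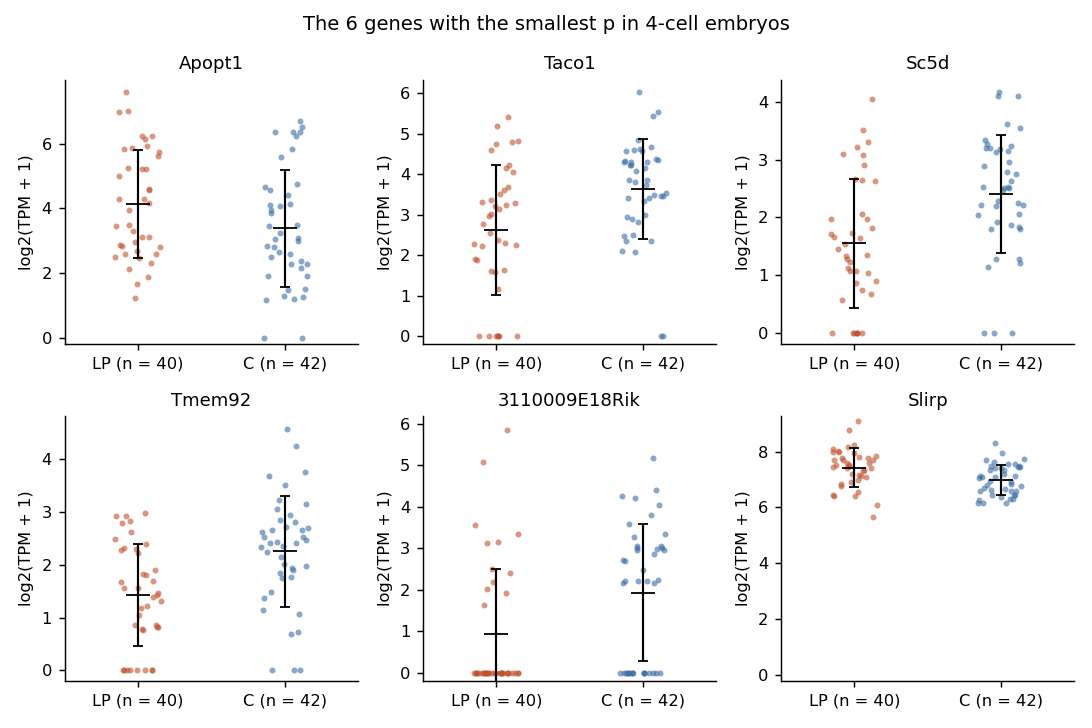
Level of the 6 genes with the smallest p in each 4-cell embryo, as log2(TPM + 1), LP embryos (n = 40) left and C embryos (n = 42) right; bars give mean and SD. In each gene the points of the diets overlap over most of their range.

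The same list held regulators of cell growth and of RNA processing. Rpp25 (chromosome 9, 57504026 to 57505448), a subunit of the RNase P and RNase MRP complexes that process tRNA and ribosomal RNA precursors, ran from 0 over 14 to 112.1 TPM in LP embryos and from 4.64 over 25.6 to 243.8 TPM in C embryos. Its log2 fold change was -0.95 ± 0.28 (limma adjusted p = 0.842), and the LP mean was lower in 8 of 8 sire pairs, with pair differences from -3.14 to -0.0024. Cdkn1a (chromosome 17, 29090976 to 29100727), the cell cycle inhibitor p21 and a target of p53, averaged 84.8 ± 77.5 TPM in LP and 107.2 ± 66.7 TPM in C embryos (SD). Its log2 fold change was -0.58 ± 0.18, with LP higher in 3 of 8 sire pairs. Sertad1 (chromosome 7, 27486910 to 27490316), which binds the cyclin-dependent kinase Cdk4, averaged 50.5 ± 29.2 TPM in LP and 74.7 ± 45.3 TPM in C embryos. The log2 fold change of Sertad1 was -0.57 ± 0.17, with LP lower in 8 of 8 sire pairs. Snhg12, a host gene of small nucleolar RNAs, had -1.01 ± 0.29, with LP likewise lower in 8 of 8. The defensin gene Defb25 had the largest size among the 24, -1.49 ± 0.43, and was listed at 0 in 26 LP and 14 C embryos.

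Also on that list with the higher level in LP embryos were Xaf1, an interferon-induced binding partner of the apoptosis inhibitor XIAP, at 0.72, and Trpc5os, an X-linked transcript, at 0.66, with LP higher in 8 of 8 sire pairs. With the lower level in LP embryos were Sdccag3 (-0.67), Tbc1d1 (-0.70), Mrfap1 (-0.38), Ptp4a3 (-0.63), Tuba3b (-1.004), 2610001J05Rik (-0.83), Tubd1 (-0.84), Atg10 (-0.92), Ntan1 (-0.79) and Tcstv3 (-0.98). Tbc1d1 regulates Rab GTPases in glucose transport, Tuba3b and Tubd1 encode tubulins, Atg10 an autophagy enzyme and Ntan1 an amidase that opens proteins to degradation. Ntan1 overlaps Pdxdc1 on the opposite strand, and Tcstv3 has near-identical copies, so their values are uncertain. None of the 24 turned sign under any of the alternatives tried. They were chosen for small p in these same embryos, so their stable sign is no separate support.

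By gene list, 18 of 26 lists with 3 or more genes tested had a median log2 fold change below 0 with all embryos, where the median of all 9820 genes was also below 0. Without the 3 LP embryos of few genes, 7 of 26 had. Of all genes tested, 58.5% had the lower level in LP embryos, and 42.7% without the 3, which is the background for the counts below. No member of any list passed the adjusted threshold. The medians are given for all embryos, followed by the value without the 3.

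**Figure D3:**
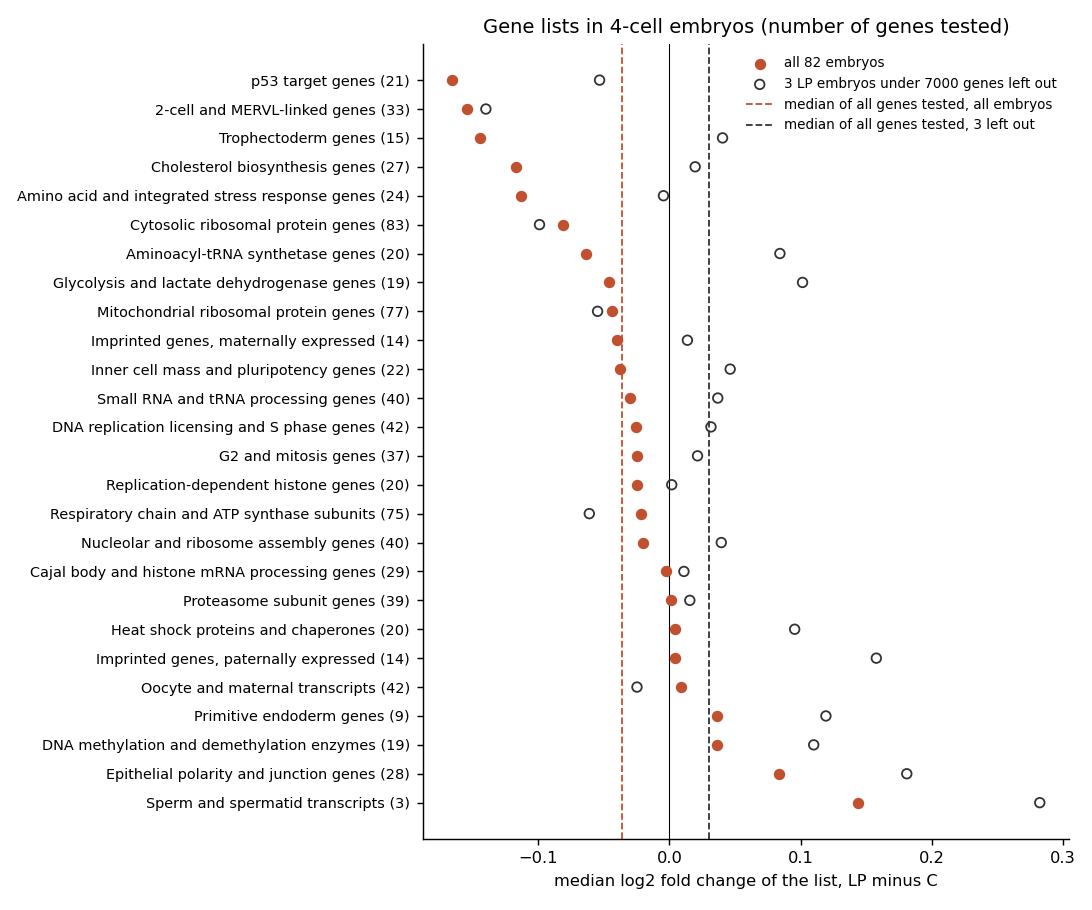
Median log2 fold change (LP minus C) of each of 26 gene lists, with the number of genes tested, over all 82 embryos (filled) and without the 3 LP embryos under 7000 genes (open); dashed lines give the medians of all genes tested, -0.04 and 0.03. Most open points lie to the right of the filled ones. Those of cytosolic and mitochondrial ribosomal protein genes, of respiratory chain and ATP synthase subunits, and of oocyte and maternal transcripts do not. The open point of the histone genes covers 21 genes.

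Among cytosolic ribosomal protein genes most members had the same sign. Of 83 genes tested, 73 had the lower level in LP embryos and 10 the higher, where 58.5% of all genes were lower. The median log2 fold change was -0.08, against -0.04 over all genes. 8 of the 83 were lower and 0 higher at an unadjusted p under 0.05, where 3.25% of all genes were lower. Without the 3 LP embryos 76 were lower and 7 higher, with a median of -0.10 against 0.03 over all genes, and 21 were lower at that p, where 2.69% of all genes were. The median was below 0 under 37 of 37 alternatives, between -0.19 and -0.03, though some of these were the same fit. The fitted difference of each gene was small. Rps23, a protein of the small subunit with the smallest p of the list, averaged 1434 ± 463 TPM in LP and 1581 ± 548 TPM in C embryos (log2 fold change -0.18 ± 0.07, limma adjusted p = 0.901). Rpl41, the most abundant, averaged 7387 ± 3660 TPM in LP and 6793 ± 2103 TPM in C embryos, with a fitted change of 0.03 ± 0.08, and of -0.02 ± 0.06 without the 3. The plates did not share the direction. The mean level of the list, on the log2 scale, differed by 0.01, -0.09, 0.24, -0.59, -0.06, -0.41 and -0.37 on plates 1 to 7. The 83 genes were measured in the same embryos and are not separate observations, and reads of their many processed pseudogenes make single values uncertain. In the fit over 3 stages the list's median was -0.37 at the 2-cell stage, -0.08 at the 4-cell stage and -0.05 in morulae. The medians of autosomal genes in that fit were 0.02, -0.04 and 0.10.

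Mitochondrial ribosomal protein genes had a median of -0.04 (-0.05 without the 3), with 44 of 77 lower in LP, and respiratory chain and ATP synthase subunits one of -0.02 (-0.06), with 41 of 75 lower. Both counts were near the share over all genes, of which 58.5% were lower. Among the respiratory chain genes, Uqcrb, a subunit of complex III, averaged 417.0 ± 234.7 TPM in LP and 325.9 ± 173.0 TPM in C embryos (0.33 ± 0.12, limma adjusted p = 0.901). Nucleolar and ribosome assembly genes had a median of -0.02, and 0.04 without the 3, and proteasome subunits one of 0.00, and 0.02 without the 3. Aminoacyl-tRNA synthetases had -0.06, and 0.08 without the 3 LP embryos.

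Of the 2-cell and MERVL-linked genes, 33 of 43 in the table passed the filter, 24 with the lower level in LP embryos and 9 with the higher. The median was -0.15 with all embryos and -0.14 without the 3. With all embryos 3 genes, Tmem92, Tcstv3 and Tdpoz3, were lower and 0 higher at an unadjusted p under 0.05. At that p 3.25% of all genes were lower and 1.96% higher. Leaving out the 3 LP embryos gave 4 lower and 2 higher, where 2.69% of all genes were lower and 5.30% higher. Tdpoz3, a BTB domain gene with close copies, was listed at 0 in 30 of 40 LP and 22 of 42 C embryos. Zscan4d, one of the 2-cell genes that protect telomeres, ran from 0 over 5.32 to 24.9 TPM in LP embryos and from 0 over 7.08 to 32.1 TPM in C embryos, with a log2 fold change of -0.38 ± 0.31, and of -0.21 ± 0.30 without the 3 LP embryos. Zfp352 had medians of 1.27 TPM in LP and 1.37 TPM in C embryos. Tdpoz4, which is lost more slowly, had medians of 42.4 TPM in LP and 51.3 TPM in C embryos (-0.56 ± 0.30, and -0.32 ± 0.27 without the 3). The mean log2 level of the list differed by -0.38, -0.80, -0.46, 0.71, 0.06, 0.27 and -0.17 on plates 1 to 7, so the direction was not shared. With sire means as units the list median was 0.00.

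Oocyte and maternal transcripts were split, 20 of 42 lower and 22 higher in LP embryos, with a median of 0.01, and of -0.02 without the 3. Dppa3, which protects the maternal genome's methylation in the zygote, ran from 5797 over 9703 to 52610 TPM in LP embryos and from 5884 over 9638 to 15810 TPM in C embryos. Zp3, a coat protein of the egg, ran from 0 over 19.4 to 79.6 TPM in LP embryos and from 4.58 over 24.8 to 73.4 TPM in C embryos, with a log2 fold change of -0.42 ± 0.21.

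p53 target genes had a median of -0.17, with 16 of 21 lower in LP embryos, and -0.05 with 12 of 21 lower without the 3. The share lower over all genes was 58.5%, and 42.7% without the 3. Beside Cdkn1a, the growth arrest gene Gadd45b averaged 7.74 ± 10.3 TPM in LP and 21.1 ± 40.7 TPM in C embryos (-0.75 ± 0.32), and was listed at 0 in 11 LP and 9 C embryos. Amino acid and integrated stress response genes had a median of -0.11, with 20 of 24 lower, and of -0.00 with 12 of 24 lower without the 3. Atf4, the transcription factor at the centre of that response, averaged 148.3 ± 82.5 TPM in LP and 158.8 ± 83.7 TPM in C embryos (-0.20 ± 0.09), and Phgdh, the first enzyme of serine synthesis, 944.7 ± 436.1 TPM in LP and 940.3 ± 315.0 TPM in C embryos. Cholesterol synthesis genes, of which 17 of 27 were lower in LP, had a median of -0.12, and 0.02 without the 3. Fdps, an early enzyme of the pathway, averaged 297.6 ± 99.6 TPM in LP and 313.3 ± 110.7 TPM in C embryos.

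The 50 replication-dependent histone genes in the table are mostly low in this protocol, and 20 passed the filter, 10 lower and 10 higher in LP embryos, with a median of -0.02. Without the 3 it was 0.05 for the same 20 genes, and 0.00 for the 21 genes that then passed the filter. Hist1h2ao had the highest mean of them, with 978.8 ± 659.6 TPM in LP and 765.1 ± 555.9 TPM in C embryos (0.59 ± 0.36). Hist1h4d averaged 70.9 ± 79.9 TPM in LP and 82.1 ± 69.4 TPM in C embryos. Near-identical copies make the value of each histone gene uncertain. Cajal body and histone mRNA processing genes had a median of -0.00 (0.01 without the 3), DNA replication genes one of -0.03 (0.03), and G2 and mitosis genes one of -0.02 (0.02). In the last list Cenpa, the centromeric histone variant, averaged 242.5 ± 91.8 TPM in LP and 289.9 ± 129.2 TPM in C embryos (-0.28 ± 0.11).

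Small RNA and tRNA processing genes, of which 23 of 40 were lower in LP, had a median of -0.03 (0.04 without the 3) and included Rpp25. Clp1, an RNA kinase of tRNA splicing, averaged 263.0 ± 138.2 TPM in LP and 291.8 ± 145.8 TPM in C embryos. Enzymes of DNA methylation and demethylation had a median of 0.04 (0.11). Paternally expressed imprinted genes had a median of 0.00 (0.16), with 7 of 14 lower in LP. Maternally expressed ones had -0.04 (0.01), with 9 of 14 lower, among them the cell cycle inhibitor Cdkn1c at -0.57 ± 0.25; Phlda2, a brake on placental growth, was at 0.87 ± 0.40. Mcts2, a paternally expressed gene with LP lower in 8 of 8 sire pairs (-0.60 ± 0.36), lies within H13, whose reads may be counted with it. Trophectoderm genes had a median of -0.14, and 0.04 without the 3 LP embryos; Hand1 averaged 352.8 ± 175.6 TPM in LP and 377.3 ± 171.2 TPM in C embryos. Epithelial polarity genes had a median of 0.08 (0.18 without the 3), primitive endoderm genes one of 0.04 (0.12), inner cell mass genes one of -0.04 (0.05), heat shock proteins one of 0.00 (0.10), glycolysis genes one of -0.05 (0.10) and the 3 sperm transcripts one of 0.14 (0.28). Of the cumulus cell list 2 genes were tested, Amhr2 and Nr5a2, with a median of -0.02 (0.04). Amhr2 averaged 170.4 ± 66.4 TPM in LP and 183.6 ± 48.4 TPM in C embryos, against 10.7 ± 18.1 and 20.3 ± 35.2 TPM in 2-cell embryos. In the inner cell mass list Prdm14, a germline and pluripotency factor, averaged 10.7 ± 9.43 TPM in LP and 15.3 ± 11.2 TPM in C embryos (-0.64 ± 0.26).

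The sex chromosomes were looked at apart. Eif2s3y and Ddx3y, housekeeping genes of the Y chromosome that mark male embryos, were each above 0 in 11 of 40 LP embryos (27.5%) and in 23 of 42 C embryos (54.8%). Without the 3 LP embryos of few genes the LP count was 11 of 37 (29.7%). At the 2-cell stage one or the other was above 0 in 18 of 39 LP (46.2%) and 19 of 41 C embryos (46.3%), and in morulae in 15 of 35 LP (42.9%) and 16 of 38 C embryos (42.1%). Among 4-cell embryos, 5 of 14 LP and 7 of 14 C embryos of plate 1 had a Y transcript, and 1 of 10 LP and 6 of 12 C embryos of plate 5. The share was lower in LP on plates 2, 4 and 7 as well and equal on plates 3 and 6. Xist, the RNA that coats the X chromosome to be silenced, ran from 0 over 4.49 to 202.3 TPM in LP embryos and from 0 over 0.605 to 110.6 TPM in C embryos. Its log2 fold change was 0.93 ± 0.43 (limma adjusted p = 0.939). Xist overlaps its antisense partner Tsix, and their reads cannot be told apart.

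Of 333 X-linked genes, 254 (76.3%) had the higher level in LP embryos, with a median log2 fold change of 0.13, whereas 40.1% of 9077 autosomal genes did, with a median of -0.04. At an unadjusted p under 0.05, 25 of the X-linked genes were higher in LP and 1 was lower, where 1.96% of all genes were higher and 3.25% lower. Without the 3 LP embryos the medians were 0.19 for X-linked and 0.03 for autosomal genes. Pdha1, the X-linked subunit of pyruvate dehydrogenase, averaged 375.1 ± 158.9 TPM in LP and 325.8 ± 171.4 TPM in C embryos (0.23 ± 0.13). With the level of Eif2s3y as a further covariate, an alternative chosen after seeing these counts, the medians were 0.03 for X-linked and -0.03 for autosomal genes, and 0 genes passed the adjusted threshold. In the fit over 3 stages the X-linked and autosomal medians were 0.08 and 0.02 at the 2-cell stage and 0.03 and 0.10 in morulae. The part of the embryos' sex in these differences was not tested apart from that covariate, and the grouping by chromosome was made after the values were seen.

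Position on the course of development was measured by a score. The score, scaled to 0 at the mean of C 2-cell embryos and 1 at the mean of C morulae and built from 500 genes that increase and 500 that decrease between those stages without use of a 4-cell embryo, averaged 0.814 ± 0.043 in LP and 0.812 ± 0.045 in C embryos (SD, n = 40 and 42). The difference within plates was 0.00048 (95% interval -0.018 to 0.019; two-sided permutation of diet within plate, p = 0.958, adjusted over 4 measures 0.958). Genes detected at 1 TPM or more averaged 8667 ± 791 in LP and 8853 ± 373 in C embryos, a difference within plates of -144.9 (-350.9 to 61.04; permutation p = 0.175, adjusted 0.352). Without the 3 LP embryos of few genes that difference was 15.3. They were left out for this same count, so their removal had to raise the LP mean. Rn45s, the ribosomal RNA precursor, took 7.18 ± 9.43% of TPM in LP and 8.87 ± 10.6% in C embryos, with a difference within plates of -0.98 percentage points (permutation p = 0.203, adjusted 0.352). The means of Rn45s on plate 5 were 21.6% in LP and 24.9% in C embryos, and on plate 1 1.58% in both. The correlation of an embryo with the mean of the others of its diet averaged 0.927 ± 0.051 in LP and 0.937 ± 0.022 in C embryos (permutation p = 0.264, adjusted 0.352).

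**Figure D4:**
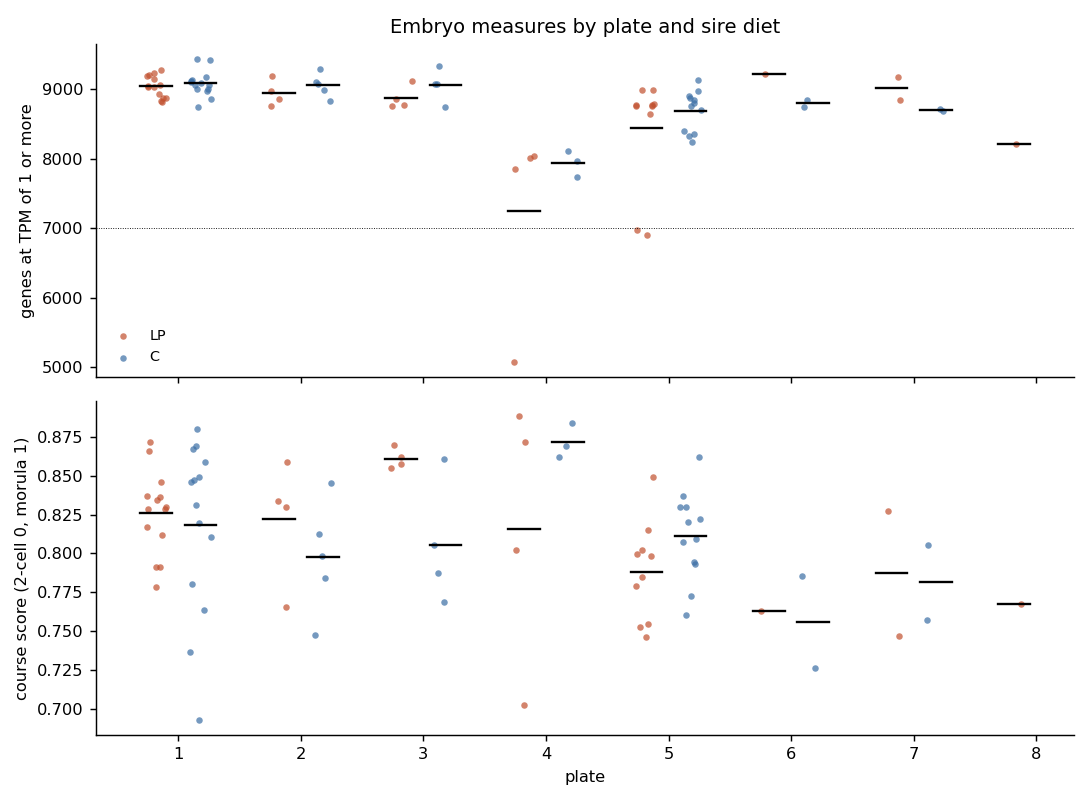
Genes at 1 TPM or more (top) and course score (bottom) of each 4-cell embryo by plate, LP left of C on each plate, with the mean of each group as a bar; the dotted line marks 7000 genes. The 3 embryos below the line are LP embryos of plates 4 and 5, and plate 8 holds 1 LP embryo that adds nothing to a comparison within plates.

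The main axes of variation among the embryos followed plate rather than diet. The first principal component took 16.8% of the variance, and 54.6% of it lay between plates and 0.909% between diets. The second took 10.3%, of which 88.4% lay between plates and 0.00114% between diets. Of the list means, proteasome subunits had the largest share between plates, 75.4%. p53 target genes had the largest share between diets, 4.31%.

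The diet difference at the 4-cell stage was set against that at the neighbouring stages in 1 limma fit of 2-cell, 4-cell and morula embryos (11008 genes, plate within stage). Against the 2-cell stage, with 39 LP and 41 C embryos, 0 genes (0%) had a different diet effect at an adjusted p under 0.05. For diet within a stage, the same fit called 72 genes at the 2-cell stage, 0 at the 4-cell stage and 5 in morulae. With sire as a correlated block these counts were 10, 0 and 0. Against morulae, with 35 LP and 38 C embryos, 2 genes (0.0182%) did, Tmem92 and Mif4gd. At an unadjusted p under 0.05, 786 of the 11008 genes passed against the 2-cell stage and 1054 against morulae. Tmem92 averaged 269.3 ± 127.8 TPM in LP and 282.6 ± 140.6 TPM in C 2-cell embryos. In 4-cell embryos it averaged 2.31 ± 2.11 TPM in LP and 5.07 ± 4.59 TPM in C, and in morulae 13.7 ± 10.7 TPM in LP and 9.34 ± 6.22 TPM in C. The log2 fold change was -0.77 at the 4-cell stage and 0.61 in morulae, a difference of -1.38 ± 0.29 (adjusted p = 0.0277). Mif4gd (chromosome 11, 115607918 to 115612969), which encodes a partner of the stem-loop binding protein in the translation of histone mRNAs, averaged 18.6 ± 13.02 TPM in LP and 24.5 ± 12.01 TPM in C 4-cell embryos, and 29.9 ± 16.2 TPM in LP and 19.4 ± 11.9 TPM in C morulae. Its log2 fold changes were -0.46 and 0.80, a difference of -1.25 ± 0.27 (adjusted p = 0.0323). Mif4gd overlaps Mrps7 on the opposite strand. Neither gene passed the threshold for diet at the 4-cell stage itself, nor did either in morulae, and after quantile normalization neither difference passed, with an adjusted p of 0.125 for both.

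**Figure D5:**
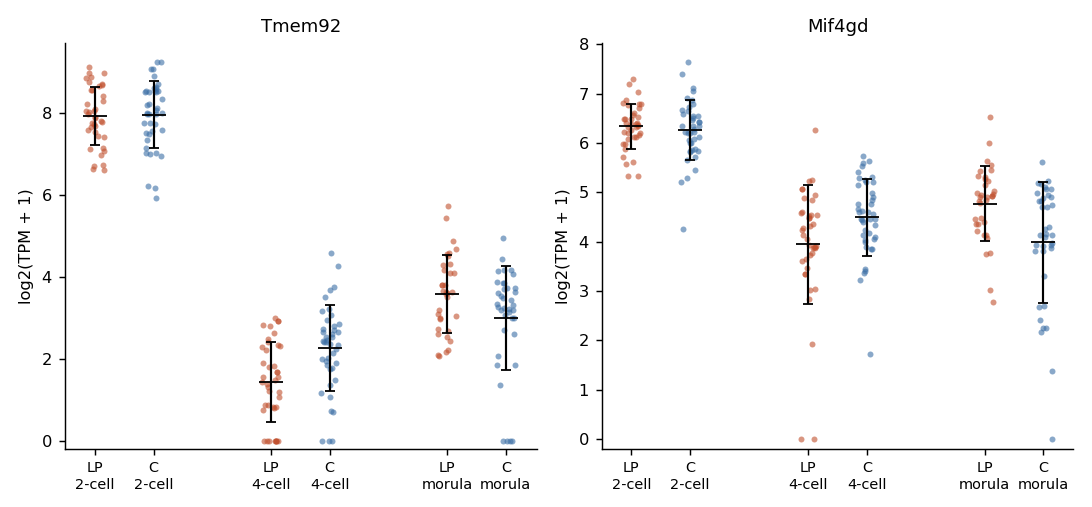
Level of Tmem92 and Mif4gd as log2(TPM + 1) in each embryo of the 2-cell, 4-cell and morula stages, LP left of C at each stage; bars give mean and SD. Mean levels in LP embryos lie below those in C embryos at the 4-cell stage and above them in morulae, with overlapping points.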

How the data were processed

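Single embryos were sequenced from total RNA with a single-cell RNA-seq and Nextera protocol, per the labels' protocols; reads were aligned with Bowtie to mm10, per the submitters' processing notes, while versions and the counting step are not given in the sources used here. Upstream, the authors deposited 1 table of TPM values for 11076 genes and 280 embryos with stage, diet, sire and oocyte donor in its header. The 4-cell columns sum to between 990683 and 997913 TPM; sequencing depth is unknown. Among the names, 15 read as calendar dates.

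The filter kept genes that reached 1 TPM in 25% or more of the 4-cell embryos. log2(TPM + 1) was fitted with limma 3.58.1 (R 4.3.3; trend and robust), with plate as covariate and Benjamini-Hochberg adjustment at 0.05; fold changes are on the log2(TPM + 1) scale and understate changes of low genes. The diet by stage fit used plate within stage. Embryo measures were tested by 100000 permutations of diet within plate. Positions are from GENCODE vM21. Sire pairs are sires whose identifiers share a stem, which is assumed to mark a pair. Named genes are the 24 of smallest p with a mean of 5 TPM or more in 1 diet, the most abundant member and the member of smallest p of each of 28 gene lists, and Xist, Eif2s3y, Ddx3y, Zscan4c, Zscan4d, Tdpoz4 and Zfp352; the X-linked grouping was added after the values were seen. One gene that the rule names is not reported here. The embryos, lists and tests were chosen with earlier results of these data known. Nothing says that embryos of a sire are independent, so p-values over embryos may be too small. The scripts were tested on simulated data. Alternatives covered scaling, filter, pseudocount, covariates, sire, embryos left out and all stages in 1 fit.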

Additional observations from a re-analysis of the deposited data

Results flagged for a closer look

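The diet difference of Tmem92, a MERVL-linked gene, at the 4-cell stage differed from that in morulae by -1.38 on the log2 scale in the test of the difference itself (limma adjusted p = 0.0277), being -0.77 at the 4-cell stage and 0.61 in morulae. The same test gave -1.25 for Mif4gd (adjusted p = 0.0323), at -0.46 and 0.80. LP means of Mif4gd were higher in 1 of 8 sire pairs at the 4-cell stage, and likewise for Tmem92. With sire as a correlated block the adjusted p was 0.0185 for Tmem92 and 0.057 for Mif4gd, and without the embryos under 7000 genes of all 3 stages it was 0.0358 for both.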

How the results depend on the processing

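The 4-cell comparison was refitted under 37 alternatives. Outside plate 5, leaving out a sire pair was the same fit as leaving out its plate, so the alternatives are not all separate. 36 of them called 0 genes at an adjusted p under 0.05 and 1, all stages in 1 fit, called 1 gene, Krt84, a keratin gene outside the naming rule (-0.71, adjusted p = 0.0295). The count at an unadjusted p of 0.05 was 287 without plate as covariate and 787 without the 3 LP embryos under 7000 genes. Leaving out only the embryo with 6898 genes gave 671 genes and 11 lists with a median below 0, and leaving out all 3 gave 7 such lists. Leaving out the embryos with 6981 and 5071 genes one at a time gave 472 and 501 genes. Over all alternatives 24 of 83 named genes and 21 of 26 list medians changed sign. The lowest adjusted p of a gene that was not called was 0.0743, for Apopt1 with oocyte donor in place of plate. In the separate fit of 2-cell, 4-cell and morula embryos, the diet difference at the 4-cell stage itself passed for 0 genes as reported, for 3 with a pseudocount of 0.1 (Krt84, 2610001J05Rik and Arhgap15, all lower in LP) and for 1 without the embryos under 7000 genes (Sc5d, -0.89, adjusted p = 0.0492). For the difference from morulae, 4 genes passed with a pseudocount of 0.1, 5 without the embryos under 7000 genes, 1 with sire as a correlated block, and 0 after quantile normalization or without plate. For the difference from the 2-cell stage 1 gene, Msx1, passed with sire as a correlated block. The cause of each shift was not tested. The fit without suffixed sires, that without plates 1 and 5, the Eif2s3y covariate, the single embryos left out, and the fit over stages without embryos under 7000 genes were chosen after seeing the data. Fits within sire pairs or within oocyte donors in place of plate called 0 genes, with 204 higher and 331 lower genes at an unadjusted p of 0.05 for pairs and 219 higher and 433 lower for donors. TPM without depth leaves the precision of low genes unknown.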
